A study of Oryctolagus cuniculus with 3 samples.

Results

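The proteins of the mitochondrial ribosome were followed here as 42 of the 6477 genes that could be named in the value table of a rabbit embryo array study. A gene was taken when its symbol starts with MRPL or MRPS and a probe of it is in that table, and its brightest probe stood for it, by the mean log2 processed intensity in the scanner files of replicates 1 and 3. The symbols were chosen by name and not by their values. Of the 42 genes, 30 belong to the large subunit and 12 to the small subunit; MRPS18A is counted with the large subunit, where its protein sits in the human mitochondrial ribosome.

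Mitochondria carry ribosomes of their own, which make the few respiratory chain proteins encoded in mitochondrial DNA. The proteins of these ribosomes are encoded in the nucleus, made in the cytosol and imported. Some descend from ribosomal proteins of bacteria (the MRPL13 and MRPS12 proteins, for example), and others, such as MRPL42 and MRPS27, are found on mitochondrial ribosomes only. In the blastocyst, respiration rises as the embryo forms its cavity, and the machinery of mitochondrial translation is part of the supply of the respiratory chain.

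The study set slow-freezing directly against vitrification. Rabbit morulae were recovered on day 3, cryopreserved and transferred to recipient does, and the late blastocysts were collected 3 days later, on day 6. The frozen embryos had been slow-frozen; the sources used here give no protocol for it. The vitrified embryos had been plunged into liquid nitrogen in straws after short baths in dimethyl sulphoxide and ethylene glycol. Both groups were thus cryopreserved, transferred and grown in a recipient, and fresh embryos were not analysed here. Each of 3 arrays with 2 colours held frozen embryos in one channel and vitrified embryos in the other, so the unit of every value is the log2 ratio of frozen over vitrified, and a positive value means a higher signal in frozen embryos. Frozen embryos were labelled with Cy5 on replicates 1 and 3 and with Cy3 on replicate 2. The labels call the arrays biological replicates; neither the strain of the rabbits nor the number of embryos or does behind each RNA is stated in what was used here.

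The probes are 60 bases long, and the sequences of 6 genes are shown because the account below turns on them. MRPL13 had the highest mean of the family, and its 5 probes walk along the transcript in steps of 30 bases. Capitals mark the bases that a probe shares with the one before it, and the start of each probe is numbered as in the scanner files.

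MRPL13 probe from base 354: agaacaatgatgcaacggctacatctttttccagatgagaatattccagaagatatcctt
MRPL13 probe from base 384: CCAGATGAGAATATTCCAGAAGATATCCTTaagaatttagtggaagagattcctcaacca
MRPL13 probe from base 414: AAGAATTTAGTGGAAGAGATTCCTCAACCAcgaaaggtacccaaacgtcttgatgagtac
MRPL13 probe from base 444: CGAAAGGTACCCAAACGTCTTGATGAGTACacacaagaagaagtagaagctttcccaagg
MRPL13 probe from base 474: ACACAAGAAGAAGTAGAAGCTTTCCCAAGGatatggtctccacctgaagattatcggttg

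MRPS15 is shown because its probes overlap almost fully. Its 5 probes start 1 base apart, so that 56 bases, in capitals, are common to all of them, and they read nearly the same stretch 5 times. The first and the last are given.

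MRPS15 probe from base 652: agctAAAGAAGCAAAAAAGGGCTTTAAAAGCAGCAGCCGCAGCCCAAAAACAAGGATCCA
MRPS15 probe from base 656: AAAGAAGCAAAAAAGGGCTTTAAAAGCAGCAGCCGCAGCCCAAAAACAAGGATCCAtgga

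The other 4 genes have 1 probe each in the table. MRPL42 had the highest mean after MRPL13, MRPS18A had the most even values over the arrays, and MRPS27 and MRPL46 had 2 of the lowest means.

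MRPL42 probe: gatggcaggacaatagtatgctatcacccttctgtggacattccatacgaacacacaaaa
MRPS18A probe: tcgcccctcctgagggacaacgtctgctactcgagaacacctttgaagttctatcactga
MRPS27 probe: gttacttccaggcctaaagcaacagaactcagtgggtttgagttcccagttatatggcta
MRPL46 probe: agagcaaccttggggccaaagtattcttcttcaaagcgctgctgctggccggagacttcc

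Across the family, frozen and vitrified blastocysts gave nearly the same signal. The median of the 42 mean log2 ratios was -0.01, with quartiles of -0.08 and 0.05, against a median of -0.01 for all named genes. On average over the arrays 19 of the 42 genes lay above 0 and 23 below it, against 3030 above and 3447 below for all named genes. The mean of 40 genes was under a 1.2-fold difference in either direction, and 38 of 42 (90.5%) were within 0.2 log2 units of 0, where 74.8% of all named genes lay. No member reached a 1.5-fold mean difference, which 2.21% of all named genes did.

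No gene of the family passed the test, and none did in the rest of the table. Over 22839 probes, limma with Benjamini-Hochberg adjustment called 0 (0%) at 0.05, and no adjusted p was smaller than 0.55. At an unadjusted limma p under 0.05 there were 0 of 42 members, against 271 of 6477 named genes (4.18%) and 1020 probes (4.47%). The smallest unadjusted limma p of a member was 0.11, for MRPS27, and the adjusted p of every member was 1.00. With 3 arrays an exact two-sided sign-flip test of a single gene cannot go below p = 0.25.

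A p that misses the threshold does not show that the embryos were alike, so the 95% limma intervals of the mean log2 ratios are given as bounds. Their half-width was 0.32 to 0.54 log2 units over the 42 genes, with a median of 0.35, against 0.39 for all named genes. For 38 of 42 genes the whole interval lay inside a 1.5-fold difference either way, which is 0.58 on the log2 scale, and the same held for 62.5% of all named genes. The highest upper bound was 0.54, for MRPL13, and the lowest lower bound was -0.78, for MRPL46. The 4 genes whose intervals reached beyond 1.5-fold were MRPS27, MRPS15, MRPL46 and MRPL49, all towards a lower signal in frozen embryos. These bounds hold for replicate 2 as deposited. With its sign turned, the means of these genes were -0.35, 0.02, -0.37 and -0.25, and the highest mean of the family was 0.36, for MRPL17.

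**Figure D1:**
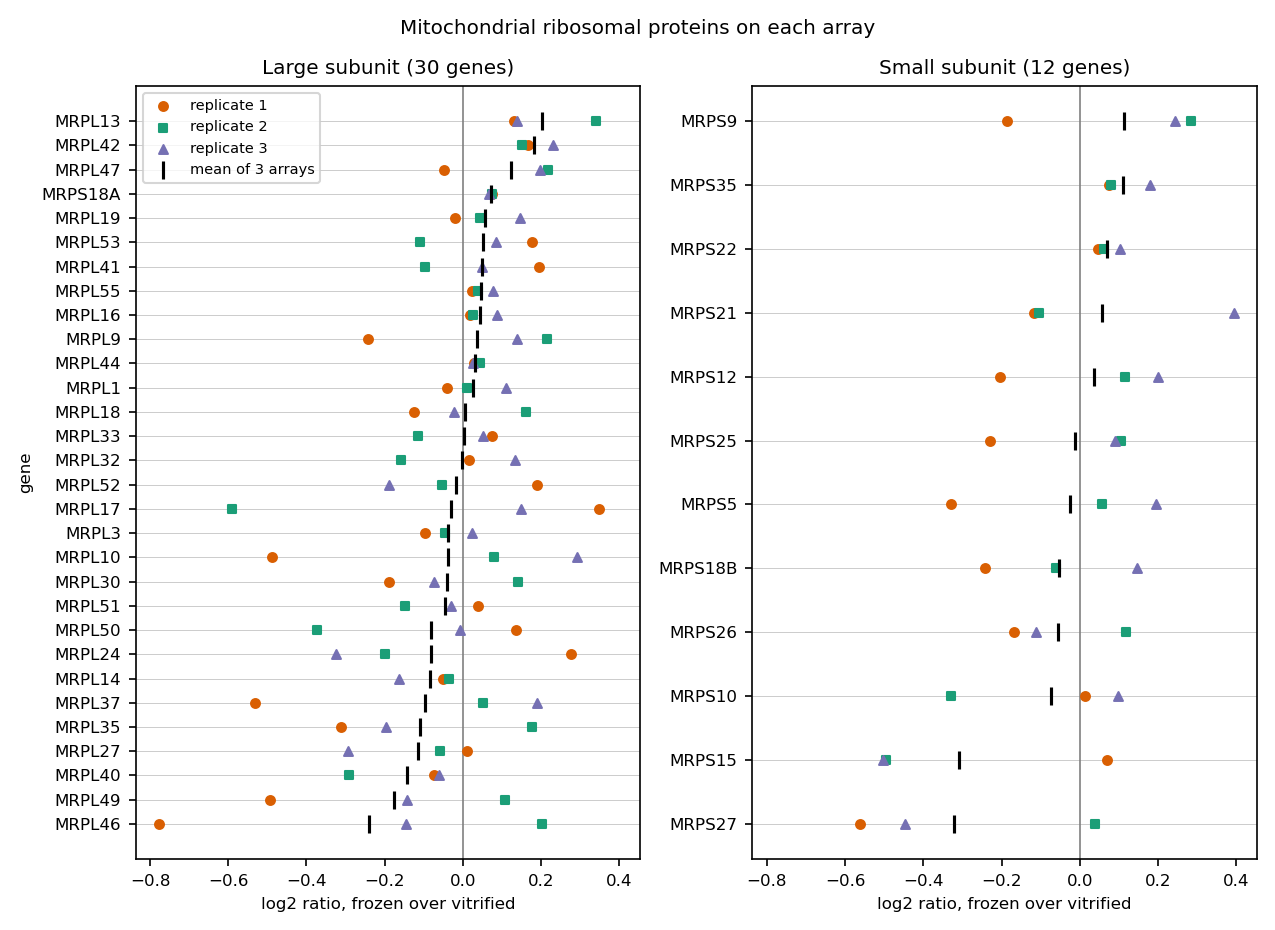
Log2 ratio of frozen over vitrified embryos on the 3 arrays (coloured points) and their mean (black bar) for the 30 large-subunit genes, left, and the 12 small-subunit genes, right, ordered by mean. Most means lie within 0.2 of 0, while single arrays reach -0.78 (MRPL46) and 0.39 (MRPS21), and replicate 1 is often on the other side of 0 from replicates 2 and 3.

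The arrays did not rank genes alike, which bears on every value here. Over all 22839 probes the log2 ratios of replicates 1 and 2 correlated at a Pearson r of -0.36, those of replicates 1 and 3 at -0.01, and those of replicates 2 and 3 at 0.48 across probes, which share the array and its labelling; over the 42 members the same values were -0.47, 0.05 and 0.25. The direction of the replicate 2 column is likely rather than stated: on the 10 spike-in probes it correlated at -1.0 with replicates 1 and 3, as a column already turned for its swapped dyes would. Values with its sign turned are therefore given where they change a reading. Cell type markers also differed between the arrays. Of 8 listed blood cell markers, 3 were measured. The haemoglobin gene HBA had log2 ratios of 1.88, -2.23 and -1.79 on replicates 1, 2 and 3. HBB2, another haemoglobin gene, had 2.62, -3.77 and -3.59, while S100A9 had 0.54, -0.15 and 0.25. The 9 measured hypoblast markers of 16 listed had medians of -0.11, -0.81 and -1.06. The 6 measured trophoblast markers of 11 listed, genes of the outer layer of the blastocyst such as KRT8 and GATA3, had medians of -0.10, 0.25 and 0.19. For the 6 measured epiblast markers of 10 listed the medians were -0.45, 0.03 and -0.30. These readings rest on the direction of replicate 2. With its sign turned, the median of the mean log2 ratios went from -0.58 to 0.03 for hypoblast and from -0.71 to 0.77 for blood cell markers. It went from 0.16 to -0.01 for trophoblast, from -0.32 to -0.24 for epiblast and from -0.41 to -0.20 for uterine markers. The part of these cells in the members' values was not tested; in whole embryos, fewer cells of a type and less RNA per cell cannot be told apart.

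The members' ratios spread less than those of all named genes, a difference that was not tested. On replicates 1, 2 and 3 the SD of the log2 ratios across the 42 members was 0.24, 0.20 and 0.19, against 0.44, 0.33 and 0.35 across all named genes. The median SD of a gene over the 3 arrays was 0.16 for members and 0.26 for all named genes, and the median size of a mean was 0.06 against 0.11. The members' probes were also brighter, with a median of 12.42 for the mean log2 processed intensity against 8.53 for all named genes, and the part of brightness in the smaller spread was not tested.

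By the signs of the log2 ratios, 8 of 42 members were above 0 on every array, where 10.8% of all named genes were, and 2 of 42 were below 0, where 11.6% were. The 10 genes of 1 sign are 23.8% of the family, close to the 22.4% of all named genes. These counts rest on the direction of replicate 2. With its sign turned, 6 other members were above 0 on every array, where 11% of all named genes were. Another 7 were below 0, where 15.3% were. Together 13 had 1 sign, where 26.4% of all named genes did. The 10 genes could not be among them, since turning 1 array breaks a shared sign in any gene. The other arrangements of signs were spread over the family much as over the table. The most frequent was a negative value on replicate 1 with positive values on replicates 2 and 3, in 10 members (23.8%) and 25.4% of all named genes, and no member had positive values on replicates 1 and 2 with a negative one on replicate 3, where 5.53% of all named genes fell.

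**Figure D2:**
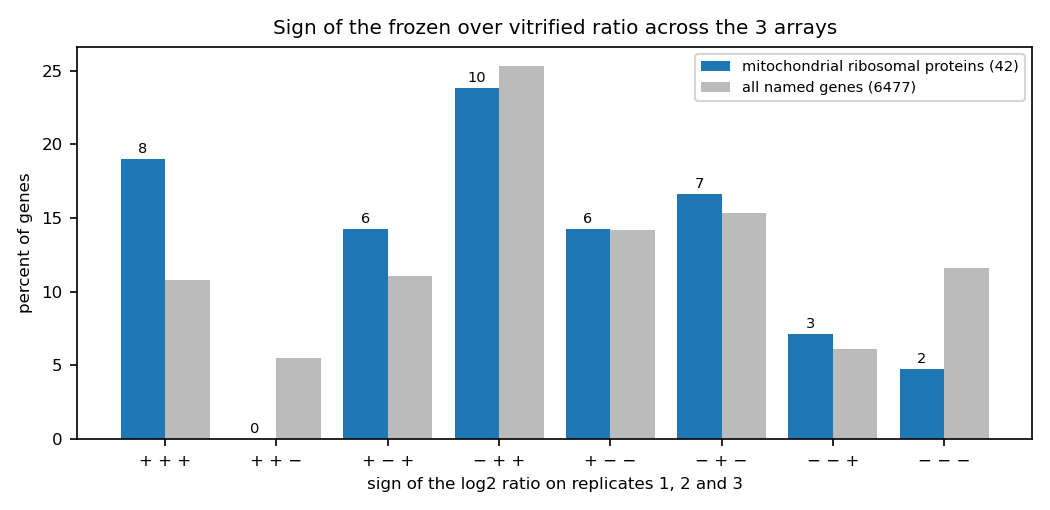
Share of genes, in percent, with each arrangement of signs of the frozen over vitrified log2 ratio on replicates 1, 2 and 3, for the 42 members (blue, with their number above the bar) and all 6477 named genes (grey). The bar for 3 positive values holds 8 members (19.0% against 10.8%) and that for 3 negative values holds 2 (4.76% against 11.6%). With the sign of replicate 2 turned, the genes of 1 sign would be the 6 members of the + − + bar and the 7 of the − + − bar.

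Of the large-subunit genes, 8 kept 1 sign on all 3 arrays. MRPL13, whose bacterial relative is an early-binding protein of the large subunit, had log2 ratios of 0.13, 0.34 and 0.14 on replicates 1, 2 and 3. Its processed intensities were 5429 in frozen and 4959 in vitrified embryos on replicate 1, and 4477 in frozen and 4068 in vitrified embryos on replicate 3. The frozen signal was thus the higher one on every array, by 0.20 ± 0.12 on average (SD, n = 3), and replicate 2 gave the largest value. With the sign of replicate 2 turned the mean was -0.02. The 5 probes printed above gave means of 0.17, 0.19, 0.21, 0.20 and 0.20 in their order along the transcript, and each was above 0 on all arrays; neighbours share 30 bases and all 5 share the same RNA, so they are not independent measurements of the embryos.

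MRPL42, a protein specific to mitochondrial ribosomes, had log2 ratios of 0.17, 0.15 and 0.23 on replicates 1, 2 and 3. Its processed intensities were 5109 in frozen and 4554 in vitrified embryos on replicate 1, and 3788 in frozen and 3231 in vitrified embryos on replicate 3. The mean of 0.18 ± 0.04 (SD, n = 3) had an interval of -0.14 to 0.50 and an adjusted limma p of 1.00, and it was 0.08 with replicate 2 turned. The array-to-array SD was small beside the mean, but limma sets each gene's error partly from all probes, and the mean did not pass the test.

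MRPS18A gave almost the same ratio 3 times, at 0.07 on each array, with an SD of 0.0040. MRPS18A is 1 of 3 relatives of bacterial S18 in mammals, and its processed intensities were 5978 in frozen and 5679 in vitrified embryos on replicate 1, and 7291 in frozen and 6959 in vitrified embryos on replicate 3. MRPL44, a relative of ribonuclease III in the large subunit, was the next most even, with 0.03, 0.04 and 0.03 and an SD of 0.0094. MRPL55 had 0.02, 0.04 and 0.08 with an SD of 0.03. These 3 genes had the smallest SDs of the family. With replicate 2 turned their values lie on both sides of 0, as those of any gene of 1 sign must. The means were then 0.02 ± 0.08 for MRPS18A, 0.0034 ± 0.04 for MRPL44 and 0.02 ± 0.06 for MRPL55 (SD, n = 3 each). MRPL16, whose bacterial relative lies near the tRNA sites, completed the genes above 0 on every array, with 0.02, 0.03 and 0.09.

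Below 0 on all arrays there were 2 genes, both of the large subunit. MRPL40, a mitochondria-specific protein, had log2 ratios of -0.07, -0.29 and -0.06, with processed intensities of 22060 in frozen and 23219 in vitrified embryos on replicate 1. Its mean was -0.14 ± 0.13 (SD, n = 3), and 0.05 with replicate 2 turned. MRPL14, which lies where the subunits meet, had -0.05, -0.04 and -0.16, a mean of -0.08 ± 0.07 (SD, n = 3).

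In the small subunit, 2 genes kept 1 sign, both above 0 and both mitochondria-specific. MRPS35 had 0.08, 0.08 and 0.18 on replicates 1, 2 and 3, a mean of 0.11 ± 0.06 (SD, n = 3), with processed intensities of 24623 in frozen and 23362 in vitrified embryos on replicate 1. MRPS22, whose human gene is known from inherited respiratory chain deficiency, had 0.05, 0.06 and 0.10, a mean of 0.07 ± 0.03 (SD, n = 3).

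The sign of a small ratio also depended on the probe. Of the 10 genes of 1 sign, 4 have a single probe (MRPL42, MRPL55, MRPS18A and MRPS35). Of the other 6, MRPL13 alone had that sign on all arrays for each of its probes; for MRPL14, MRPL16, MRPL40, MRPL44 and MRPS22 just 1 probe, the brightest, did. With the mean over all probes of a gene in place of the brightest, 7 members kept 1 sign.

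Of the 6 genes with the widest range over the arrays, 5 were of the large subunit, which holds 30 of the 42 genes; the median SD over the arrays was 0.15 in the large and 0.22 in the small subunit. MRPL46, a mitochondria-specific protein, had log2 ratios of -0.78, 0.20 and -0.14 on replicates 1, 2 and 3, with processed intensities of 459 in frozen and 787 in vitrified embryos on replicate 1 and of 615 in frozen and 680 in vitrified embryos on replicate 3. Replicate 1 carried the mean of -0.24 ± 0.50 (SD, n = 3), which was 0.03 without that array. MRPL17, whose bacterial relative lies by the exit of the nascent chain, had 0.35, -0.59 and 0.15, so that replicate 2 stood on the other side of 0 from the others. Its mean was -0.03 ± 0.49 (SD, n = 3), and 0.36 with replicate 2 turned.

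MRPL10, the base of the stalk that recruits translation factors, had -0.49, 0.08 and 0.29, and MRPL37, a mitochondria-specific protein, had -0.53, 0.05 and 0.19. In both, replicate 1 was low and the other arrays were above 0; without replicate 1 the means were 0.19 and 0.12. The 5 probes of MRPL37, which start 1 base apart, gave nearly the same picture, with -0.53 to -0.46 on replicate 1 and 0.10 to 0.19 on replicate 3, so the difference between these arrays exceeded the difference between probes. MRPL24, whose bacterial relative lies near the exit tunnel, went the other way, with 0.28, -0.20 and -0.32.

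MRPS27 had the lowest mean of the family with replicate 2 as deposited; with its sign turned the mean of MRPS27 was -0.35 and that of MRPL46, at -0.37, was lower. This small-subunit protein, which carries pentatricopeptide repeats, had log2 ratios of -0.56, 0.04 and -0.45, and its processed intensities were 104 in frozen and 153 in vitrified embryos on replicate 1 and 75.0 in frozen and 102 in vitrified embryos on replicate 3. Frozen embryos were thus lower on the arrays that share a dye orientation and 0.04 above vitrified embryos on the swapped one. The mean was -0.32 ± 0.32 (SD, n = 3), with an interval of -0.75 to 0.10, and it was -0.23 with the dye orientation as a covariate. Leaving out replicate 1 gave -0.20 and leaving out replicate 2 gave -0.50.

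MRPS15, named here after its values were seen, had the next lowest mean. Its bacterial relative binds the rRNA of the small subunit, and its log2 ratios were 0.07, -0.50 and -0.50. Processed intensities were 1477 in frozen and 1408 in vitrified embryos on replicate 1, and 1533 in frozen and 2171 in vitrified embryos on replicate 3. The mean was -0.31 ± 0.33 (SD, n = 3), and 0.02 with replicate 2 turned; it was -0.50 without replicate 1, -0.22 without replicate 2 and -0.21 without replicate 3. Its 5 overlapping probes had means of -0.36 to -0.24, with 0.04 to 0.10 on replicate 1 and -0.61 to -0.43 on replicate 3. Without replicate 1 it was the 1 member of 42 with an unadjusted limma p under 0.05, against 3720 of 22839 probes. Its adjusted limma p was then 0.095, when 796 probes of the table passed the test. Over all alternatives the smallest adjusted limma p of any member ran from 0.095 to 1.00.

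Probe brightness differed within the low end. By mean log2 processed intensity the dimmest probes of the family were those of MRPS27 (6.72), MRPL49 (8.58) and MRPL46 (9.28), and these are 3 of the 4 genes with the lowest means. MRPL49, another mitochondria-specific protein of the large subunit named after its values were seen, had log2 ratios of -0.49, 0.11 and -0.14. All 3 probes were well above background wherever a scanner file shows it, and the part of dimness in their ratios was not tested.

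**Figure D3:**
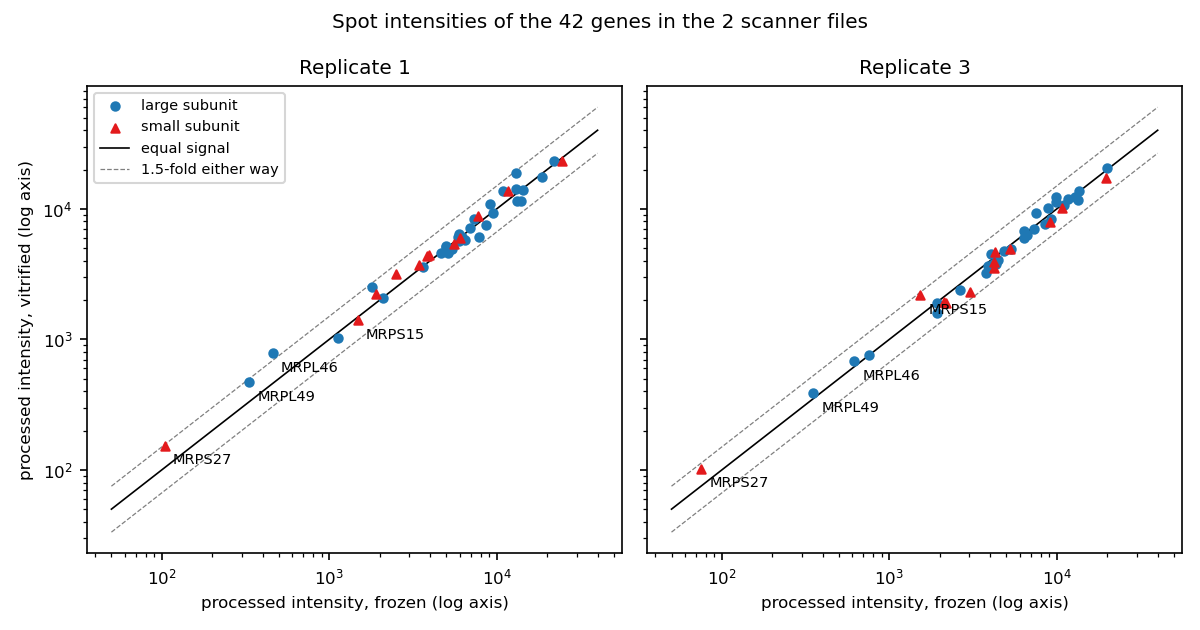
Processed intensity of the 42 genes' probes in frozen embryos (horizontal, log axis) and vitrified embryos (vertical, log axis) on replicates 1 and 3, with circles for the large and triangles for the small subunit. Points hug the line of equal signal; MRPL46 lies beyond the dashed 1.5-fold line on replicate 1 (459 in frozen and 787 in vitrified embryos), and the 3 dimmest probes are MRPS27, MRPL49 and MRPL46.

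By subunit, the medians of the mean log2 ratios were -0.01 for the 30 large-subunit genes and -0.02 for the 12 small-subunit genes. The array medians differed more. The large subunit had 0.01, 0.03 and 0.05 on replicates 1, 2 and 3, and the small subunit -0.18, 0.06 and 0.13, against -0.08, 0.04 and 0.02 for all named genes. On replicate 1, 4 of 12 small-subunit and 16 of 30 large-subunit genes were above 0, against 2695 of 6477 named genes. On replicate 3 it was 9 of 12 and 18 of 30, against 3453 of 6477 named genes. The small-subunit genes thus lay mostly below 0 on replicate 1 and mostly above it on replicate 3. Taken 1 array at a time, the named genes leaned the same way but less on replicate 3. Of 6477, 3782 were below 0 on replicate 1 and 3453 above it on replicate 3. The difference between the subunits was not tested.

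Ancestry gave no clearer division. MRPS18A and MRPS18B, relatives of bacterial S18 beside MRPS18C, were counted with the mitochondria-specific genes. Among 18 large-subunit genes with bacterial relatives (of 30 listed) the median was 0.00058 and 9 were above and 9 below 0, with a range of means of -0.11 (MRPL27) to 0.20 (MRPL13). Among 12 large-subunit genes specific to mitochondria (of 21 listed) the median was -0.03, with 5 above and 7 below 0. The 6 small-subunit genes with bacterial relatives (of 15 listed) had a median of 0.01 and ran from MRPS15 to MRPS9 (0.11), and the 6 specific to mitochondria (of 11 listed) had a median of -0.03 and ran from MRPS27 to MRPS35. Without MRPS18A and MRPS18B, an alternative chosen after seeing the data, the mitochondria-specific medians were -0.05 over 11 large-subunit and -0.01 over 5 small-subunit genes.

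The table holds 105 probes of the 42 members, and 21 members have more than 1. The probes of those 21 genes overlap their neighbours in each case, so they test the measurement and not the biology. The probe means of a gene differed by a median of 0.04 log2 units, and in 16 of 21 genes they shared a sign. The largest spread, 0.14, was in MRPS21, a relative of bacterial S21. Its brightest probe read 0.39 on replicate 3, and the other 4, shifted by 1 to 4 bases, read -0.01 to 0.11 there. Among the brightest probes, this highest single value thus stood on 1 probe of its gene.

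**Figure D4:**
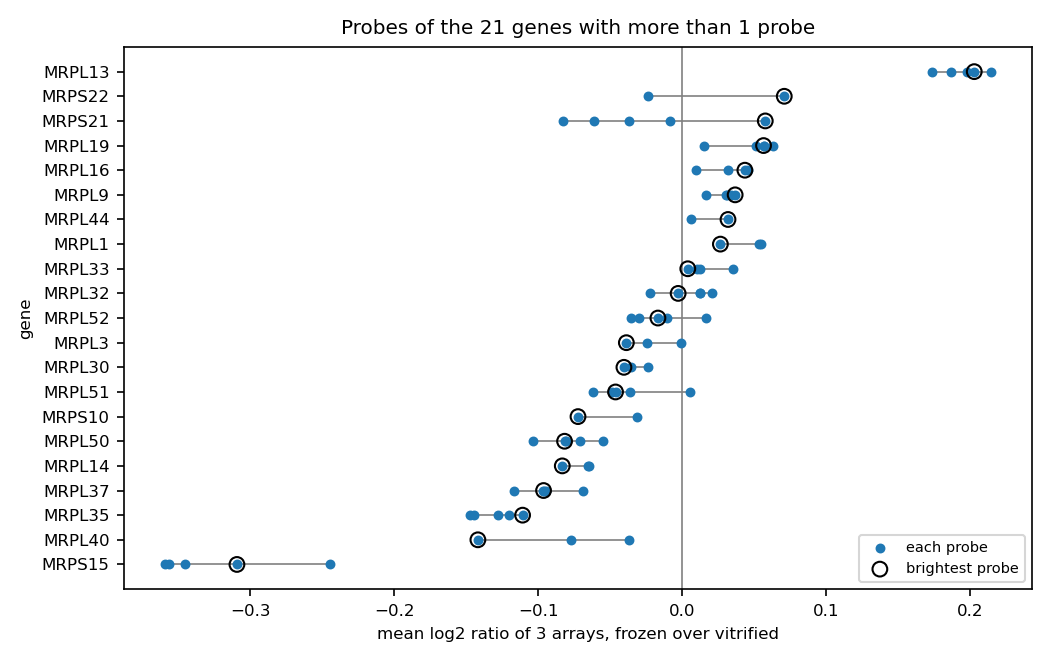
Mean log2 ratio, frozen over vitrified, of each probe (points) of the 21 genes with more than 1 probe; a ring marks the brightest probe, which stands for the gene, and a line joins the probes of a gene. The 5 probes of MRPL13 lie at 0.17 to 0.21 and those of MRPS15 at -0.36 to -0.24, and the widest line is that of MRPS21 (0.14).

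The other steps of mitochondrial translation were also near 0 in mean and uneven between arrays. With replicate 2 turned, the medians given below became -0.24 for the other subunits, -0.05 for assembly and -0.12 for translation factors. They became -0.15 for the synthetases, -0.08 for transcription and RNA processing and -0.12 for import. A gene with 1 sign on every array cannot keep it then, whatever its values, so for such genes named below only the turned means are informative. The turned means were -0.10 for AURKAIP1, -0.05 for NSUN4, -0.12 for MTFMT, -0.07 for OXA1L and 0.11 for GRSF1. They were 0.08 for TOMM7, -0.05 for RPL7A and 0.17 for UQCRB, and the mean of COX7B2 went from 0.65 to -0.45. None of the genes in these lists passed the test; the smallest unadjusted limma p among those named below were 0.048 for UQCRB, 0.059 for TFB2M and 0.084 for RPL7A, each with an adjusted p of 1.00. Of 5 listed mitochondrial ribosome subunits with other symbols, 3 were measured, all below 0 in mean, with a median of -0.16. Among them PTCD3 had log2 ratios of -0.46, 0.04 and -0.21 and AURKAIP1 had -0.36, -0.10 and -0.02. Probes described as L48 and S17, which have no symbol here, are outside this list and had means of 0.04 and -0.0071. Assembly and rRNA modification factors (12 of 27 measured) had a median of -0.03, with 5 above and 7 below 0. NSUN4, a methyltransferase of the small-subunit rRNA, had -0.31, -0.25 and -0.10, and RMND1, an inner-membrane protein needed for mitochondrial translation, had 0.47, 0.12 and -0.02.

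Translation factors and partners of the nascent chain (11 of 17) had a median of 0.02, with 6 above and 5 below 0. MTFMT, which formylates the initiator methionyl-tRNA, was below 0 on every array, at -0.17, -0.24 and -0.42, with a mean of -0.27 ± 0.13 (SD, n = 3). OXA1L, the insertase of newly made inner-membrane proteins, was below 0 on every array too, at -0.10, -0.11 and -0.22. Mitochondrial aminoacyl-tRNA synthetases (12 of 17) had a median of -0.01, and TARS2 and EARS2, which charge threonine and glutamate tRNAs, had means of -0.15 ± 0.49 and -0.14 ± 0.36 (SD, n = 3 each).

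Among 19 of 22 genes of mitochondrial transcription and RNA processing, 6 were above and 13 below 0, with a median of -0.02. TFB2M, the factor that opens mitochondrial promoters, had the largest of these values, with 0.08, 0.72 and 0.41, a mean of 0.40 ± 0.32 (SD, n = 3) and -0.08 with replicate 2 turned. GRSF1, a protein of mitochondrial RNA granules, had 0.11, 0.10 and 0.30. Protein import (15 of 27) had a median of -0.02; TOMM7, a small subunit of the outer-membrane translocase, had 0.17, 0.17 and 0.24, and TOMM34, a co-chaperone of imported proteins, had -0.66, 0.04 and -0.03.

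For comparison, 35 cytosolic ribosomal protein genes had a median of -0.07, with 14 above and 21 below 0, and array medians of -0.03, 0.03 and -0.11. RPL7A was below 0 on every array, at -0.30, -0.34 and -0.18, and RPS12 had 0.97, -0.15 and 0.31. The 45 nuclear respiratory chain genes, the partners of the proteins that mitochondrial ribosomes make, had a median of 0.04, with 29 above and 16 below 0, but a median of -0.10 with replicate 2 turned; that of cytosolic ribosomal proteins was then -0.11. Of all named genes, 3030 of 6477 were above 0 in mean with replicate 2 as deposited. The respiratory chain medians by array were -0.13, 0.19 and 0.04. On replicate 1, 15 of the 45 respiratory chain genes were above 0, and 2695 of 6477 named genes were. UQCRB, a subunit of complex III, was the 1 gene of these lists with an unadjusted limma p under 0.05; it had 0.32, 0.24 and 0.44, a mean of 0.33 ± 0.10 (SD, n = 3). COX7B2, of cytochrome c oxidase, had -0.52, 1.65 and 0.83. The SD across genes on replicates 1, 2 and 3 was 0.24, 0.20 and 0.19 for the 42 members, against 0.37, 0.18 and 0.22 for cytosolic ribosomal proteins and 0.32, 0.30 and 0.19 for the respiratory chain, so the members spread least on replicate 1 and not on each array.

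**Figure D5:**
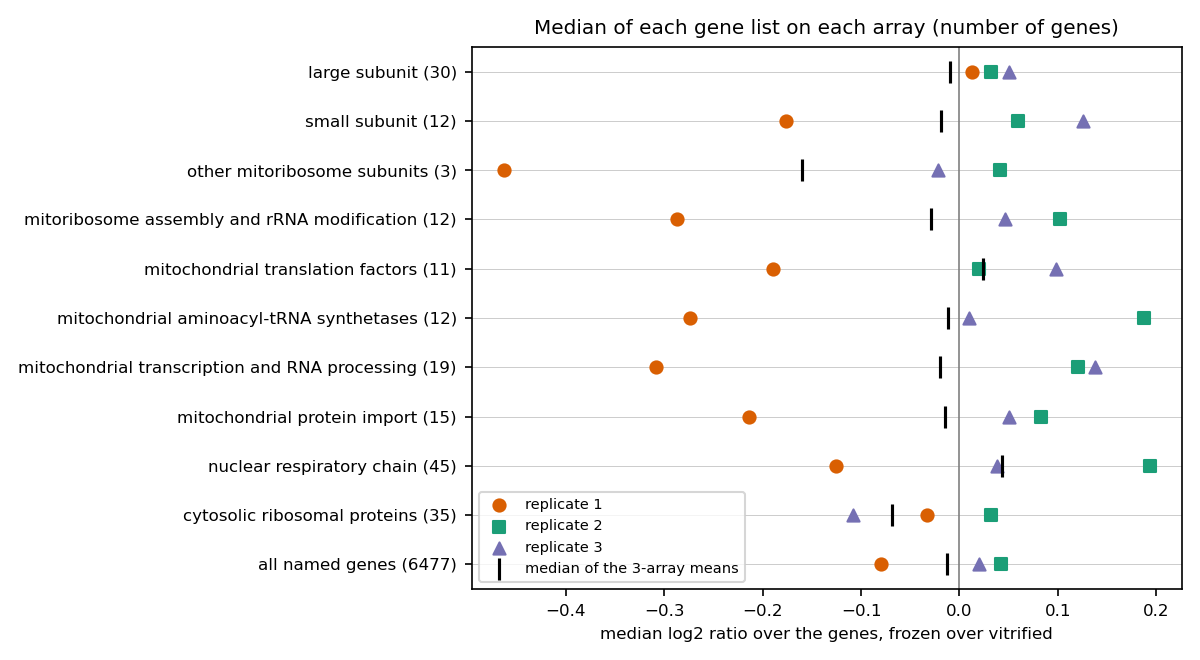
Median log2 ratio, frozen over vitrified, of each gene list on the 3 arrays (coloured points) and the median of the means (black bar), with the number of genes in brackets. Bars lie between -0.16 and 0.04, and replicate 1 (circles) is the lowest point in each list but the cytosolic ribosomal proteins, where replicate 3 is. The 3 array medians of the large subunit lie between 0.01 and 0.05.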

How the data were processed

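Total RNA of day 6 rabbit embryos (100 ng per sample, per the labels' protocols) was hybridised to 3 Agilent arrays with 2 colours. Per the submitters' processing notes, Agilent Feature Extraction 10.10.1.1 was used; the deposited scanner files of replicates 1 and 3 hold spot intensities and log10 ratios of red over green, per the file headers. Processed intensities are background-subtracted and dye-normalized, per the file headers. For replicate 2 only the value table was used here. The authors deposited log2 ratios of 3 arrays in a value table, which has 0 other columns of sample values; its filter, centring and the direction of replicate 2 are not given in the sources used here. For replicates 1 and 3 it equalled the log2 of processed red over green within 3e-06 and 2e-06. It holds 22839 of 43603 non-control probes, each well above background and 0 saturated in both scanner files, and 26 control probes, which were left out.

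RefSeq's gene table and the files' annotation named 14309 probes of 6477 genes. Log2 ratios were used as deposited and fitted with limma 3.58.1 (R 4.3.3), lmFit and eBayes against 0, two-sided. Benjamini-Hochberg adjustment ran over all 22839 probes, with a threshold of 0.05. The procedure was tested on simulated data whose arrays were independent, so that test does not cover the correlations between the arrays here. Tables were made with Python 3.11.15 and pandas 2.3.3. The number of arrays limits the precision. If the RNA pools were not independent, the p-values measure only the spread between these arrays.

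Members given in full were those with an unadjusted p under 0.05 (0 genes), up to 8 per direction of 1 sign on all arrays, the 6 with the largest range, the 3 with the smallest SD, those with probes over 0.5 apart (0 genes), and 2 genes per other list by smallest unadjusted p. Members and lists were chosen with earlier results of these data known.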

Additional observations from a re-analysis of the deposited data

How the results depend on the processing

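In each alternative (an array left out, the sign of replicate 2 turned, centring, scaling to one median absolute value, the mean over probes, the dimmest 25% of probes left out, a robust intensity trend, dye as a covariate, normexp with loess on the scanner files of replicates 1 and 3) 0 members passed the test. Leaving out 1 array gave 0 to 796 probes past the test, the 796 without replicate 1, and 13 to 26 members of 1 sign over the 2 arrays left: 26 of 42 without replicate 1 (61.9%, against 62% of all named genes), 23 without replicate 2 (54.8% against 48.8%) and 13 without replicate 3, where 34.1% of all named genes had 1 sign. The same omissions moved the median of the large subunit over -0.018 to 0.015, that of the small subunit over -0.086 to 0.090, of cytosolic ribosomal proteins over -0.165 to -0.048, of translation factors over -0.112 to 0.140, of transcription and RNA processing over -0.095 to 0.129, of the respiratory chain over -0.033 to 0.126, and the means of MRPL10 over -0.204 to 0.186, MRPL17 over -0.221 to 0.249, MRPL24 over -0.261 to 0.0393, MRPL37 over -0.240 to 0.121 and MRPL46 over -0.462 to 0.0284. The highest values of MRPL10, MRPL37 and MRPL46 were those without replicate 1, that of MRPL17 without replicate 2 and that of MRPL24 without replicate 3. With replicate 2 turned the large-subunit median was 0.0185, and the means were -0.0238 for MRPL13, 0.363 for MRPL17, 0.04999 for MRPL24 and 0.0528 for MRPL40. Scaling gave 0.0235 for MRPL10. Normexp with loess gave 19 members of 1 sign, over 2 arrays only, medians of -0.0513 for the large subunit and 0.0732 for cytosolic ribosomal proteins, and means of 0.154 for MRPL17, -0.0064 for MRPL44 and -0.0476 for MRPL55. It split the probes with an unadjusted p under 0.05 into 546 higher and 386 lower, against 421 and 599. The cause of these changes was not tested. Without replicate 1 the unadjusted limma p was under 0.05 for 3720 of 22839 probes and for 1 of 42 members, MRPS15. It was so for 1020 probes on all arrays and for 351 without replicate 3. With replicate 2 turned, it was so for 1064 of 22839 probes and for 1 of 42 members, MRPL17. No paired analysis was possible because each log2 ratio already sets frozen against vitrified embryos within 1 array, so that the fit against 0 uses these pairs, and no further sample shares a replicate number.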

Other observations

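Proteins of the mitochondrial ribosome that the file descriptions name but that have no MRP symbol here were left out of the 42. The brightest of 5 probes described as L48 had log2 ratios, frozen over vitrified, of -0.36, 0.06 and 0.42 on replicates 1, 2 and 3, a mean of 0.04 ± 0.39 (SD, n = 3). The brightest of 5 probes described as S17 had 0.11, -0.09 and -0.04, a mean of -0.0071 ± 0.10 (SD, n = 3). The brightest of 5 probes described as S36, now named KGD4 and counted as a subunit of the oxoglutarate dehydrogenase complex, had 0.16, -0.01 and 0.04, a mean of 0.06 ± 0.09 (SD, n = 3).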
